A study of Mus musculus with 11 samples.

Results

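The 5 genes described here, St3gal1, St3gal2, St3gal3, St3gal4 and St3gal6, encode the sialyltransferases that attach sialic acid through an alpha-2,3 bond to galactose on glycoproteins. They were taken by name from a custom Affymetrix glycan gene chip, as the probe set that carries a RefSeq transcript of the gene, and are 5 of 909 genes that could be named among 1246 probe sets. Each had 1 probe set, so no choice between probe sets was needed. The probe set of St3gal4 carries the suffix s, which marks probes that may also bind other transcripts. RNA came from the spleens of female C57BL/6 mice, from 3 populations of CD4+ T cells separated by flow cytometry. These were CD25+ CD45RBlow cells, labelled Treg (regulatory T cells, n = 3, replicates 1, 2 and 4), CD25- CD45RBlow cells, labelled activated/memory (n = 4), and CD25- CD45RBhigh cells, labelled naive (n = 4). The labels name no treatment and no altered allele in any group. They give an age of 4 to 6 weeks for both CD25- populations and none for the Treg samples, so age and population cannot be told apart in comparisons with Treg cells. Whether replicates are separate animals is not stated, so the p-values refer to the spread among these arrays alone, and that spread may be technical.

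Sialyltransferases are Golgi enzymes that use CMP-sialic acid as donor and finish glycan chains with a negatively charged sugar. ST3GAL1 and ST3GAL2 act on galactose linked to N-acetylgalactosamine, the core of mucin-type O-glycans, and ST3GAL2 also acts on gangliosides. ST3GAL3, ST3GAL4 and ST3GAL6 act on galactose linked to N-acetylglucosamine, at the ends of N-glycans and extended O-glycans. ST3GAL4 and ST3GAL6 contribute to sialyl Lewis x, the structure that selectins bind. In T cells the sialylation of core O-glycans by ST3GAL1 is known to mask binding sites of peanut lectin and to affect the survival of CD8 T cells.

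Values are log2 expression per probe set as the authors made them with Robust Multichip Average (RMA), 1 array per sample, and array medians lay between 4.85 and 4.94. Levels of different genes are not compared, since probes differ in affinity. Il2ra, which encodes CD25, read 9.84 ± 0.17 (SD, n = 3) in Treg, 6.17 ± 0.36 (SD, n = 4) in CD45RBlow and 4.07 ± 0.27 (SD, n = 4) in CD45RBhigh arrays. Ccr7, a marker of naive cells, was highest in the CD45RBhigh arrays at 11.38 ± 0.13 (SD, n = 4), against 10.69 ± 0.17 (SD, n = 4) in CD45RBlow and 10.37 ± 0.12 (SD, n = 3) in Treg arrays. Cd44, a marker of activated and memory cells, read 9.25 ± 0.49 (SD, n = 3) in Treg, 9.31 ± 0.63 (SD, n = 4) in CD45RBlow and 7.81 ± 0.38 (SD, n = 4) in CD45RBhigh arrays, and is 1 of 10 memory markers measured. Of the 9 listed markers of T cells in general 1 was measured, Cd2, at 11.7 to 12.4 in every array.

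**Figure D1:**
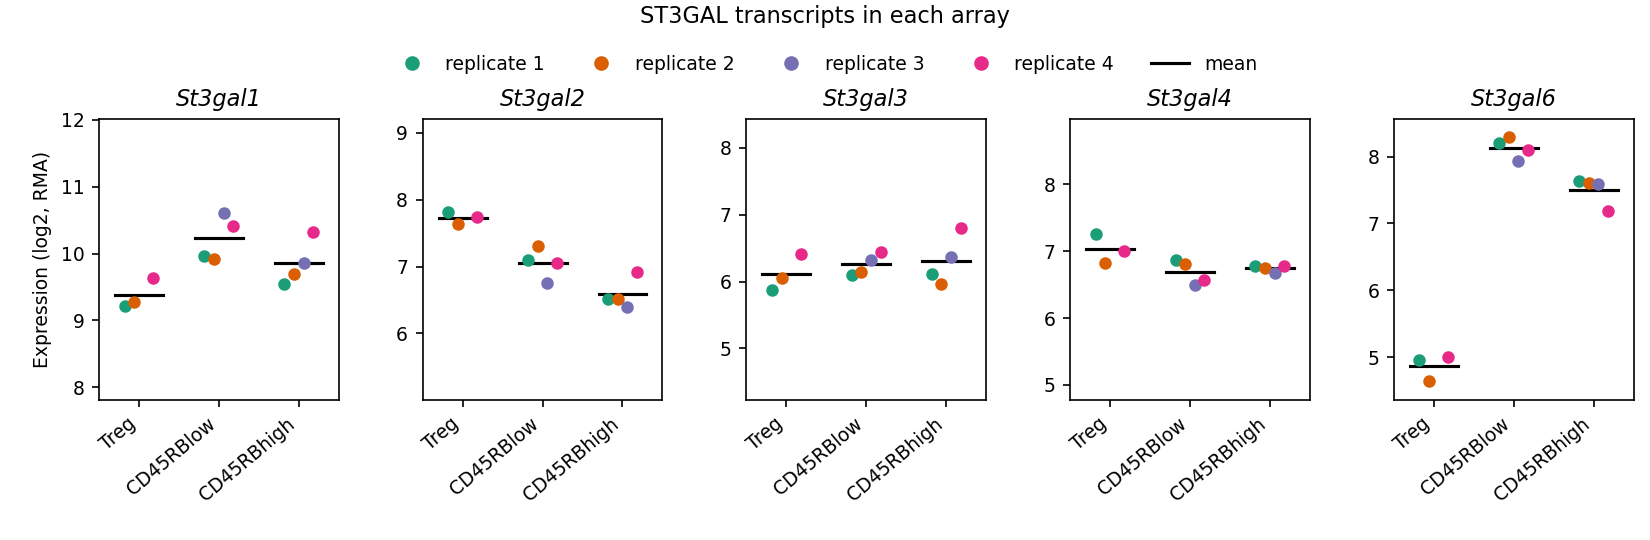
Expression (log2, RMA) of the 5 genes in each of the 11 arrays, with points coloured by replicate number and black lines for population means; all 5 vertical axes span the same number of log2 units. The Treg arrays of St3gal6 lie between 4.64 and 5.0, below all CD25- arrays at 7.18 to 8.29, while those of St3gal2 at 7.64 to 7.82 lie above all others.

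The 5 genes did not move together. St3gal6 fell in Treg cells against both other populations, St3gal2 rose against both, St3gal1 fell against CD45RBlow cells, and St3gal3 and St3gal4 passed no test between populations. Between Treg and CD45RBhigh cells limma with Benjamini-Hochberg adjustment over all 1246 probe sets called 2 of the 5 at an adjusted p under 0.05, 1 higher and 1 lower, where 18.9% of all probe sets were called, 10.3% higher and 8.59% lower. Between Treg and CD45RBlow cells 3 of 5 were called, 1 higher and 2 lower, against 12.5% of all probe sets, 6.74% higher and 5.78% lower. Between CD45RBlow and CD45RBhigh cells 2 of 5 were called, both higher in CD45RBlow cells, against 12.6% of all probe sets, 7.62% higher and 4.98% lower. A test for any difference among the 3 populations called St3gal1, St3gal2 and St3gal6 (limma adjusted p = 0.0348, 0.000317 and 3.74e-08), 3 of 5 against 20.4% of all probe sets, and gave 0.684 for St3gal3 and 0.113 for St3gal4. The St3gal1 call in that test ended without Treg replicate 1 or 2, CD45RBlow replicate 3 or 4, or CD45RBhigh replicate 3 (adjusted p = 0.119, 0.114, 0.0668, 0.0773 and 0.0537). The median size of the difference over the 5 genes was 0.48, 0.68 and 0.37 on the log2 scale in these 3 comparisons, beside 0.11, 0.10 and 0.12 over all probe sets. Any 2 of these comparisons share the arrays of 1 population, so their results are not independent.

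**Figure D2:**
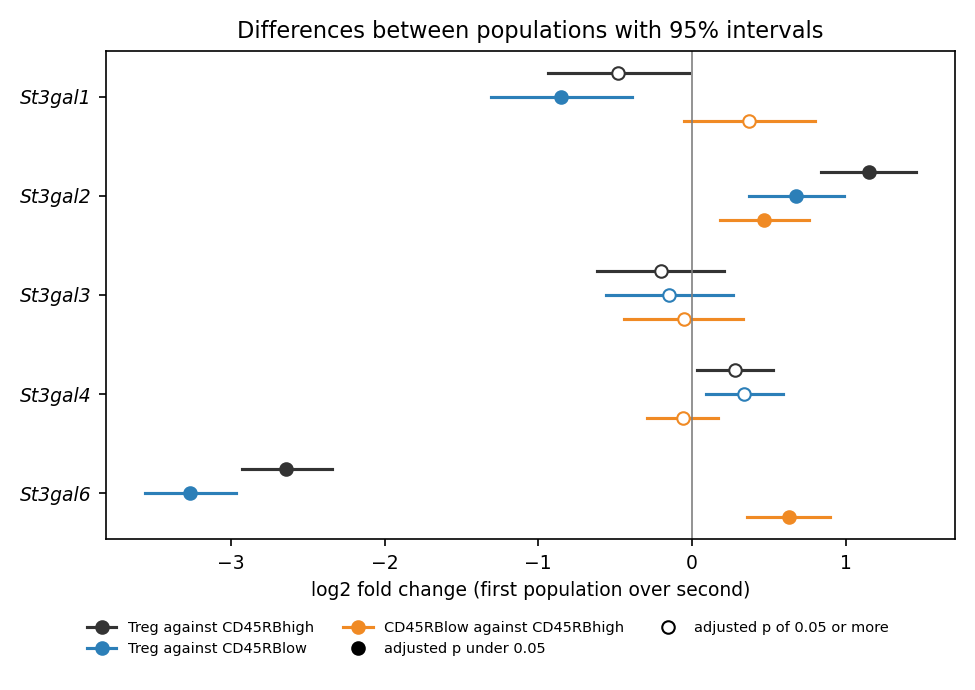
Log2 fold change of each gene in the 3 comparisons (points) with its 95% interval (lines), from limma fitted to all 11 arrays; filled points passed an adjusted p of 0.05. St3gal6 stands far to the left in both comparisons with Treg cells, at -2.64 and -3.27, and to the right at 0.63 between the CD25- populations.

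St3gal6 showed the largest difference of the 5. Its log2 values were 4.96, 4.64 and 5.0 in Treg replicates 1, 2 and 4. In CD45RBlow replicates 1 to 4 they were 8.20, 8.29, 7.94 and 8.10, and in CD45RBhigh replicates 1 to 4 they were 7.63, 7.60, 7.59 and 7.18. The Treg arrays were thus far below both CD25- populations, and every CD45RBlow array was above every CD45RBhigh array, with no overlap in any of the 3 comparisons. Groups failed to overlap at 25% of all probe sets for Treg against CD45RBhigh, 21.3% for Treg against CD45RBlow and 17.8% for CD45RBlow against CD45RBhigh.

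Against CD45RBhigh cells St3gal6 was 6.21-fold lower in Treg cells (95% interval 5.08 to 7.60, limma adjusted p = 1.14e-07), and only 4 of the other probe sets had a more negative change. Against CD45RBlow cells it was 9.62-fold lower (95% interval 7.86 to 11.8, limma adjusted p = 8.16e-08), with 2 probe sets more negative. It was 1.55-fold higher in CD45RBlow than in CD45RBhigh cells (95% interval 1.28 to 1.87, limma adjusted p = 0.00508), and that difference was positive in 4 of 4 pairs of the same replicate number, at 0.57, 0.69, 0.34 and 0.92 on the log2 scale. The order was therefore CD45RBlow, then CD45RBhigh, then Treg, with each step larger than the spread. In sorted bulk RNA a lower value in each cell and fewer cells that express the gene cannot be told apart. The Treg mean of 4.87 lies near the array medians and the table gives no detection call, so the folds against Treg cells may be lower bounds. The difference between the CD25- populations, at the same size (0.63), was not called in a fit of replicates 3 and 4 alone (limma adjusted p = 0.151) or when tested against a log2 fold of 0.5.

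Klrd1, which encodes CD94, a receptor of natural killer cells, was also lowest in Treg cells but highest in CD45RBhigh cells, at 3.93 ± 0.47 (SD, n = 3) in Treg, 8.28 ± 0.22 (SD, n = 4) in CD45RBlow and 9.22 ± 0.21 (SD, n = 4) in CD45RBhigh arrays. The list for natural killer cells and CD8 T cells has 9 genes, of which 4 were measured (Klrd1, Klrc1, Klra3 and Klra9). Their mean log2 level ran from 3.82 to 3.89 in Treg, from 5.58 to 5.97 in CD45RBlow and from 5.78 to 6.15 in CD45RBhigh arrays, with Klra3 near background in each population, that is with a mean below 3.64, the first quartile of all values. The 4 did not share 1 direction between the CD25- populations. In CD45RBlow cells Klrd1 was 0.94 lower and Klrc1 0.59 higher (limma adjusted p = 0.00581 and 0.0188). The Klrc1 call ended without CD45RBlow replicate 1 or 2. Klra9 and Klra3, at -0.22 and -0.08, were not called. The 10 listed markers of memory T cells, all measured, had a mean from 7.73 to 7.82 in Treg, from 8.93 to 9.66 in CD45RBlow and from 6.40 to 7.02 in CD45RBhigh arrays. All 10 were called higher in CD45RBlow than in CD45RBhigh cells, and 6 were called lower and 1 higher in Treg than in CD45RBlow cells (median -2.03), the direction of St3gal6 and St3gal1 there. Against CD45RBhigh cells 5 were called higher in Treg cells, opposite to St3gal6. The part of these cell types in the St3gal6 and St3gal1 differences was not tested.

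**Figure D3:**
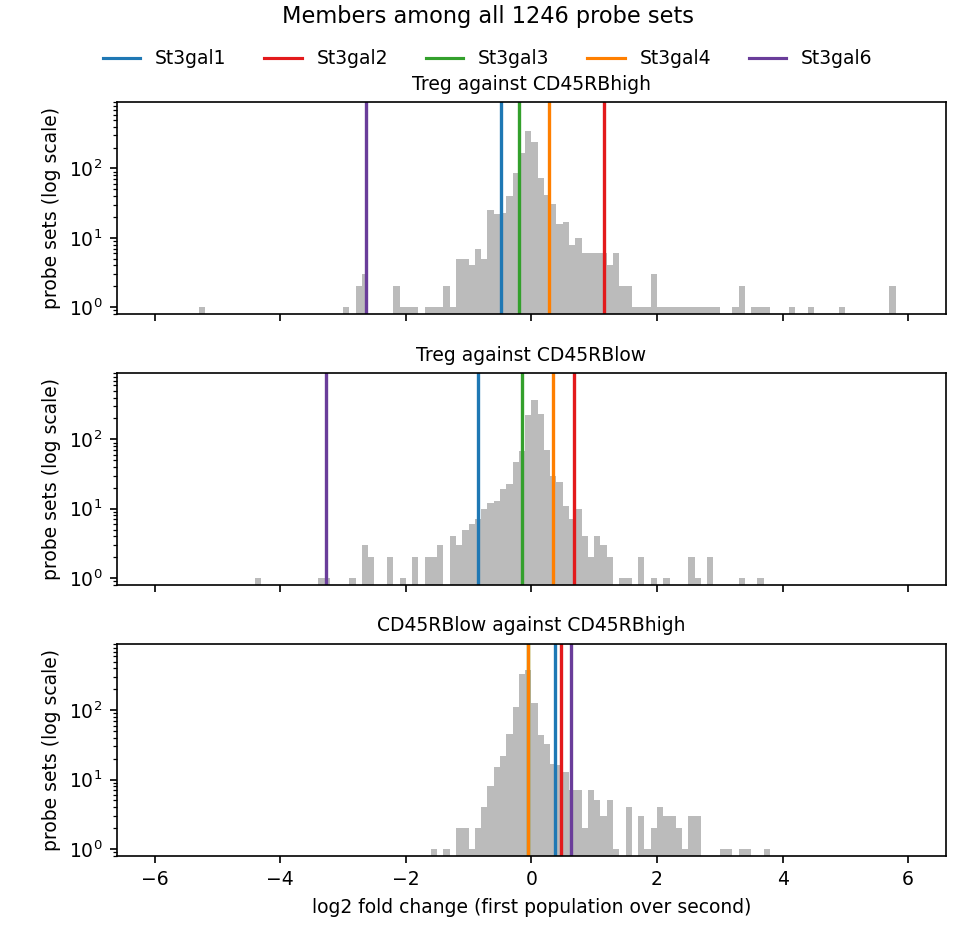
Log2 fold changes of all 1246 probe sets (grey, in bins of 0.1, counts on a log axis) in the 3 comparisons, with coloured lines at the 5 genes. St3gal6 lies in the left tail of both comparisons with Treg cells, with 4 and 2 probe sets further left, whereas St3gal3 lies within the bulk in all 3.

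RefSeq promoter windows (GRCm38.p6) were found for 3 of the 5 genes, and are shown because St3gal6, the gene with the largest difference, has 2 annotated starts whose upstream sequences differ in composition. The 250 bases before each start are given 5′ to 3′ on the gene's strand, which is the minus strand for all 4 windows. Capitals mark matches, on either strand, to GGGCGG (the GC box), CCAAT (the CCAAT box) or TGTGGT (the RUNX core). The St3gal6 windows are at chr16:58523427-58523676 (inner start) and chr16:58524254-58524503 (outer start), that of St3gal4 is at chr9:35116865-35117114 and that of St3gal3 at chr4:118134947-118135196.
St3gal6 inner start: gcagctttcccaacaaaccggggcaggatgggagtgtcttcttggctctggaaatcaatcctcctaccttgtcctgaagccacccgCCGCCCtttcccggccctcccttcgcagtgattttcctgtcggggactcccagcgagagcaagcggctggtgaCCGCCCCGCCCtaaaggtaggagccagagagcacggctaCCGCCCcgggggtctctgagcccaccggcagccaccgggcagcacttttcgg
St3gal6 outer start: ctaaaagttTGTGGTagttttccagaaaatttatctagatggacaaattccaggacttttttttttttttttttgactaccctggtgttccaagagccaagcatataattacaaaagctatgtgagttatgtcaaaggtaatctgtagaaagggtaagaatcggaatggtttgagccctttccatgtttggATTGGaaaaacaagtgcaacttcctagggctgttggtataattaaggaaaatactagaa
St3gal4: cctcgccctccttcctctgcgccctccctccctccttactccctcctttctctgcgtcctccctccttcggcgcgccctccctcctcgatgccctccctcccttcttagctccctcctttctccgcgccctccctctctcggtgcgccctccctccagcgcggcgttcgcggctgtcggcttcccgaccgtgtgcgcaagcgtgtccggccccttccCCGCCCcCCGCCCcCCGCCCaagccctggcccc
St3gal3: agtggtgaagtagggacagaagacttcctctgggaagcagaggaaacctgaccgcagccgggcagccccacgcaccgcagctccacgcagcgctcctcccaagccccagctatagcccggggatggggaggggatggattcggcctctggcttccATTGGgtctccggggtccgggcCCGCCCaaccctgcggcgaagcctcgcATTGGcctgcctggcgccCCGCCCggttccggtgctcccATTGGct

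The inner window of St3gal6 is 64.4% G and C with 16 CpG sites, and the outer one 34.8% with 1, beside medians of 52.4% and 6 over 32851 windows of the same length. St3gal4 and St3gal3, which passed no test between populations, have windows of 72.8% and 68.4% with 25 and 18 CpG sites. The GC box matched 4 times in the inner St3gal6 window, 3 times in St3gal4 and 2 times in St3gal3, and 32.7% of all windows hold at least 1 match. The CCAAT box matched 3 times in St3gal3 and 1 time in the outer St3gal6 window (33.8% of all windows), and the RUNX core 1 time in the outer St3gal6 window (14% of all windows). No match was found in these 4 windows for TATAAA (12.4% of all windows), GTAAACA (FOXO, 3.17%), CCGGAAG (ETS, 6.91%) or CTTTGAA (TCF/LEF, 4.46%). These are matches of letters only, and the probe set does not show which St3gal6 start was used.

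St3gal4 and St3gal3, which act on the same kind of chain end as St3gal6, differed far less. St3gal4 read 7.26, 6.82 and 7.00 in Treg replicates 1, 2 and 4, from 6.5 to 6.87 in the 4 CD45RBlow arrays and from 6.68 to 6.78 in the 4 CD45RBhigh arrays. All Treg arrays lay above all CD45RBhigh arrays, but by a small margin, and they overlapped the CD45RBlow arrays. The difference was 0.28 (95% interval 0.03 to 0.53, limma adjusted p = 0.130) against CD45RBhigh cells, 0.34 (0.09 to 0.59, limma adjusted p = 0.0871) against CD45RBlow cells, and -0.06 (-0.29 to 0.17, limma adjusted p = 0.723) between the CD25- populations. These intervals leave room for differences of up to 0.59 on the log2 scale. Without Treg replicate 2 the difference from CD45RBlow cells was 0.44 and passed at an adjusted p of 0.0412.

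St3gal3 read 5.87, 6.06 and 6.41 in Treg replicates 1, 2 and 4. In CD45RBlow replicates 1 to 4 it read 6.10, 6.15, 6.33 and 6.45, and in CD45RBhigh replicates 1 to 4 it read 6.12, 5.96, 6.37 and 6.80. The 3 populations overlapped throughout, and replicates 3 and 4 were above 1 and 2 within each population. The differences were -0.20 (95% interval -0.62 to 0.21) for Treg against CD45RBhigh, -0.15 (-0.56 to 0.27) for Treg against CD45RBlow and -0.05 (-0.44 to 0.33) for CD45RBlow against CD45RBhigh cells, with limma adjusted p of 0.570, 0.712 and 0.856. A Treg level up to 0.62 lower on the log2 scale lies within these intervals. With the replicate number as a block the interval for Treg against CD45RBhigh narrowed to -0.40 to 0.04, still without a call.

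St3gal1 was lowest in Treg cells. Its values were 9.22, 9.28 and 9.63 in Treg replicates 1, 2 and 4. In CD45RBlow replicates 1 to 4 they were 9.97, 9.92, 10.61 and 10.41, and in CD45RBhigh replicates 1 to 4 they were 9.54, 9.70, 9.86 and 10.32. Every Treg array was below every CD45RBlow array, while the Treg and CD45RBhigh arrays overlapped, as did those of both CD25- populations. Within 1 replicate number, however, the order was the same each time, with CD45RBlow above CD45RBhigh in 4 of 4 pairs and CD45RBhigh above Treg in 3 of 3.

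Treg cells had 1.80-fold less St3gal1 transcript than CD45RBlow cells (95% interval 1.31 to 2.48, limma adjusted p = 0.0200). This call ended without Treg replicate 1 (adjusted p = 0.0890), Treg replicate 2 (0.0771) or CD45RBlow replicate 4 (0.0520), and held with the replicate number as a block (-0.79, adjusted p = 0.000402). Against CD45RBhigh cells the difference was -0.48 (95% interval -0.94 to -0.02, limma adjusted p = 0.149), which the blocked fit called at -0.41 (SE 0.11, adjusted p = 0.0167). Between the CD25- populations it was 0.37 (95% interval -0.05 to 0.80, limma adjusted p = 0.227), also called in the blocked fit at 0.37 (SE 0.10, adjusted p = 0.0212). The blocked fit called 26.5% of all probe sets for Treg against CD45RBhigh, 19.7% for Treg against CD45RBlow and 21.7% for CD45RBlow against CD45RBhigh. Within replicates 1 and 2 alone the 3 differences were -0.70 for Treg against CD45RBlow, -0.37 for Treg against CD45RBhigh and 0.33 for CD45RBlow against CD45RBhigh (limma adjusted p = 0.00192, 0.0209 and 0.0423). Within replicates 3 and 4 they were -0.88, -0.46 and 0.42, with 1 Treg array and no call (limma adjusted p = 0.140, 0.326 and 0.344).

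St3gal2, whose enzyme shares the core O-glycan acceptor with ST3GAL1, ran the other way in Treg cells. It read 7.82, 7.64 and 7.74 in Treg replicates 1, 2 and 4. In CD45RBlow replicates 1 to 4 it read 7.10, 7.31, 6.76 and 7.06, and in CD45RBhigh replicates 1 to 4 it read 6.51, 6.51, 6.40 and 6.92. All Treg arrays were above all others, and the CD25- populations overlapped through CD45RBlow replicate 3 and CD45RBhigh replicate 4. St3gal2 was 2.21-fold higher in Treg than in CD45RBhigh cells (95% interval 1.79 to 2.74, limma adjusted p = 0.000112) and 1.6-fold higher than in CD45RBlow cells (1.29 to 1.98, limma adjusted p = 0.00778), in 3 of 3 same-numbered pairs each time. A fit of replicates 3 and 4 alone, with 1 Treg array, gave 1.08 and 0.83 on the log2 scale without a call (limma adjusted p = 0.107 and 0.214).

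CD45RBlow cells had 1.39-fold more St3gal2 than CD45RBhigh cells (95% interval 1.14 to 1.69, limma adjusted p = 0.0380), positive in 4 of 4 pairs. The order was Treg, then CD45RBlow, then CD45RBhigh, but its lower step was less firm. It had an adjusted p of 0.0718 with only the arrays of both CD25- populations in the fit, and of 0.0509 to 0.106 without Treg replicate 1, 2 or 4, CD45RBlow replicate 1, 2 or 4, or CD45RBhigh replicate 1, 2 or 3. With the replicate block it was 0.00748. The difference was 0.69 within replicates 1 and 2 (adjusted p = 0.00455) and 0.25 within replicates 3 and 4 (adjusted p = 0.623). Of 13 listed markers of regulatory T cells 7 were measured, and their mean log2 level ran from 9.0 to 9.44 in Treg, from 6.37 to 7.16 in CD45RBlow and from 4.68 to 4.93 in CD45RBhigh arrays, the same order as St3gal2. Of 7 listed B cell markers 2 were measured, Cd22 and Cd72, with a mean from 7.24 to 7.40, from 6.82 to 7.19 and from 6.78 to 6.96 in the same populations. The pair went opposite ways between Treg and CD45RBlow cells, with Cd72 higher by 0.85 and Cd22 lower by 0.30 in Treg cells (limma adjusted p = 0.00154 and 0.0235), so the higher mean in Treg cells there rests on Cd72. The part of such cells in the St3gal2 and St3gal4 values was not tested.

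Ratios within an array set members with a shared kind of acceptor against each other and cancel whatever scales a whole array. They are given as log2 ratios less their mean in CD45RBhigh arrays, since only their change between populations can be read. The ratio of St3gal2 to St3gal1 was 1.63 ± 0.24 (SD, n = 3) in Treg arrays and 0.10 ± 0.55 (SD, n = 4) in CD45RBlow arrays, beside an SD of 0.20 (n = 4) in CD45RBhigh arrays. Its lowest Treg array, at 1.38, was above the highest of the CD25- arrays, at 0.66. The ratio of St3gal6 to St3gal4 was -2.91 ± 0.15 (SD, n = 3) in Treg and 0.69 ± 0.08 (SD, n = 4) in CD45RBlow arrays, beside an SD of 0.24 (n = 4) in CD45RBhigh arrays, and no 2 populations overlapped. The ratio of St3gal6 to St3gal3 was -2.43 ± 0.29 (SD, n = 3) in Treg and 0.68 ± 0.29 (SD, n = 4) in CD45RBlow arrays, where the CD25- populations overlapped. The ratio of St3gal4 to St3gal3 overlapped between all 3 populations, from 0.16 to 0.96 in Treg, from -0.31 to 0.34 in CD45RBlow and from -0.46 to 0.35 in CD45RBhigh arrays.

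**Figure D4:**
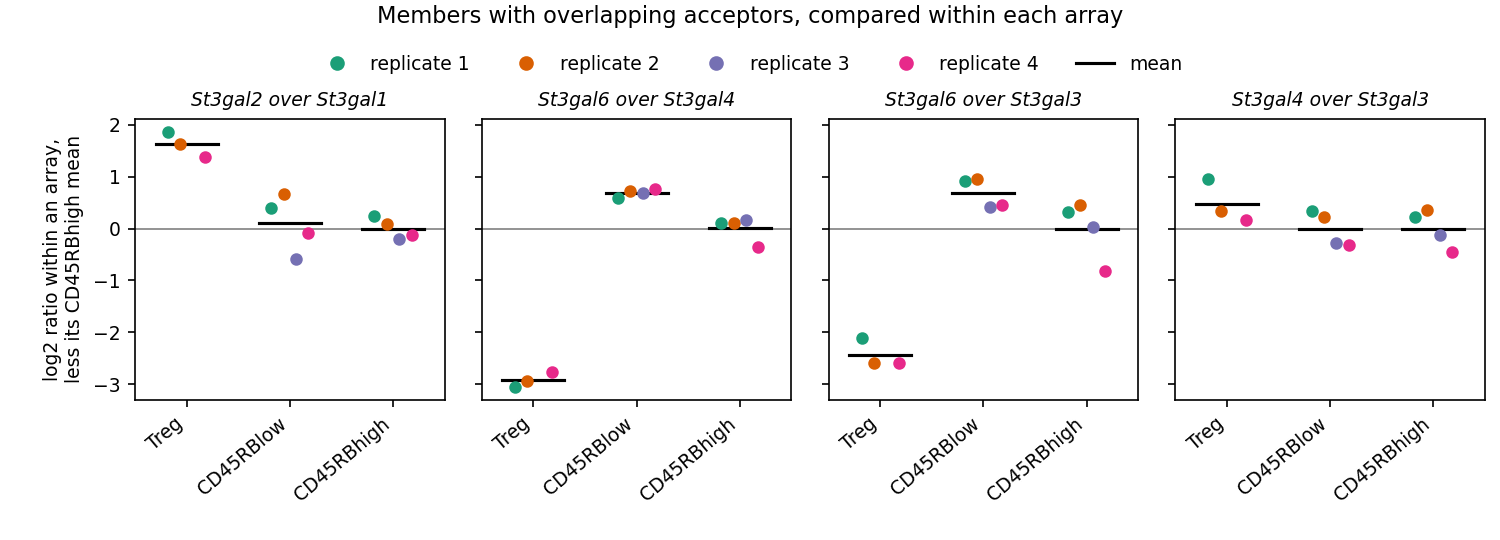
Log2 ratio of 1 gene to another within each of the 11 arrays, less its mean in CD45RBhigh arrays, for 4 pairs with overlapping acceptors; points are arrays coloured by replicate number and black lines are population means. Treg arrays stand apart at 1.38 to 1.87 for St3gal2 over St3gal1 and at -3.05 to -2.76 for St3gal6 over St3gal4, and overlap the others for St3gal4 over St3gal3.

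Replicates 1 and 2 differed from 3 and 4 in St3gal1 and St3gal3, with the population in the model. This split was chosen because earlier results of these data showed it, so its p-values and calls are descriptive. St3gal1 was lower in replicates 1 and 2 by 0.48 (SE 0.08, limma adjusted p = 0.00178) and St3gal3 by 0.41 (SE 0.09, limma adjusted p = 0.00527), where 20.6% of all probe sets were called, 11.2% lower and 9.47% higher. St3gal2, St3gal4 and St3gal6 differed between the replicate sets by 0.05 (SE 0.11), 0.14 (SE 0.08) and 0.12 (SE 0.10) and were not called. After the population means were removed, St3gal1 and St3gal3 correlated at 0.85 over the 11 arrays, and St3gal1 and St3gal6 at -0.67. These arrays share the replicate sets, so the correlations describe the arrays only. No label says what the replicate numbers mark.

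The genes with the highest Pearson correlation to each member over the 11 arrays, among 904 other named genes, were as follows, as a description of arrays that share populations and replicate sets. For St3gal6 they were Arsb, a lysosomal sulfatase (0.967), Klrd1 (0.926) and Pgm2l1, a phosphoglucomutase-like enzyme (0.905). By rank (Spearman) these correlations were 0.861 for Arsb but only 0.391 for Klrd1 and 0.636 for Pgm2l1. With population means removed the Pearson correlation with Klrd1 was 0.868 and those with Arsb and Pgm2l1 only 0.108 and 0.237. For St3gal2 they were Il2ra (0.960), Il1rl1, an interleukin receptor chain (0.949), and St3gal5, which makes the ganglioside GM3 (0.945). For St3gal1 they were Galnt2, which starts mucin-type O-glycans (0.900), Tpst2, a tyrosine sulfotransferase (0.882), and Naa60, an acetyltransferase (0.873). For St3gal3 they were Slc35c2 and Slc35c1, nucleotide sugar transporter family members (0.984 and 0.916), and Rfng, the Radical fringe glycosyltransferase (0.901). With population means removed these stayed at 0.985, 0.925 and 0.890. Like St3gal3, all 3 were lower in replicates 1 and 2 than in 3 and 4, by 0.51, 0.44 and 0.56 on the log2 scale. For St3gal4 they were Ifngr1, an interferon-gamma receptor chain (0.871), Arfgef1, an exchange factor for Golgi GTPases (0.857), and Cd72 (0.851).

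Of the 14 other sialyltransferases measured, 1 rose and 2 fell in Treg against CD45RBhigh cells, 2 rose and 2 fell against CD45RBlow cells, and 3 were higher and 2 lower in CD45RBlow than in CD45RBhigh cells. All probe sets were called at 18.9%, 12.5% and 12.6% in these comparisons, so the count against CD45RBhigh cells is near the share of all. Of the genes that rose against CD45RBlow cells, St6galnac4 lost its call without Treg replicate 1 or 4 or CD45RBlow replicate 1 or 2 (limma adjusted p = 0.0296, up to 0.107 without 1 of them), and is named after its values were seen. The median log2 differences of the 14 were 0.08, 0.11 and -0.01, beside -0.20, -0.15 and 0.37 for the 5 genes and -0.04, 0.04 and -0.08 for all probe sets. St3gal5, the remaining gene with the ST3GAL name, was in the order of St3gal2, at 6.91 ± 0.00411 (SD, n = 3) in Treg, 6.55 ± 0.02 (SD, n = 4) in CD45RBlow and 6.11 ± 0.14 (SD, n = 4) in CD45RBhigh arrays (limma adjusted p = 1.12e-05 for Treg against CD45RBhigh). Its Treg values nearly coincide, from 6.902 to 6.909. Exactly equal values within a population occur in 439 of the 1246 probe sets, though in 0 of the 5 members. What such small spreads reflect was not tested. St8sia1, which makes the ganglioside GD3, was in the reverse order of St3gal5, at 7.23 ± 0.31 (SD, n = 3) in Treg, 8.46 ± 0.12 (SD, n = 4) in CD45RBlow and 9.12 ± 0.09 (SD, n = 4) in CD45RBhigh arrays. St8sia6, another alpha-2,8 sialyltransferase, was lower by 1.02 in Treg and by 1.05 in CD45RBlow than in CD45RBhigh cells (limma adjusted p = 0.000433 and 0.000301). St6galnac1, which adds sialic acid to O-linked N-acetylgalactosamine, was highest in CD45RBlow cells at 4.45 ± 0.40 (SD, n = 4). Its means were 3.643 in Treg and 3.623 in CD45RBhigh cells. The latter was near background, and the Treg mean lay barely above the cut of 3.6403.

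Of 5 measured genes for the supply of CMP-sialic acid, 2 fell in Treg cells against either CD25- population, and 1 fell in CD45RBlow against CD45RBhigh cells. The shares of all probe sets called were 18.9% for Treg against CD45RBhigh, 12.5% for Treg against CD45RBlow and 12.6% for CD45RBlow against CD45RBhigh cells. Cmah, which turns N-acetyl into N-glycolyl sialic acid, fell by 1.37 against CD45RBhigh and by 0.71 against CD45RBlow cells (limma adjusted p = 2.79e-05 and 0.00584). Cmas, which makes CMP-sialic acid, fell by 0.41 and 0.30 (limma adjusted p = 0.00238 and 0.0228), the latter call ending without Treg replicate 2 or 4 or CD45RBlow replicate 1 or 4 (adjusted p up to 0.0892). Of 4 measured genes of the sialidase list, which remove sialic acid, 1 rose and 2 fell in Treg against CD45RBhigh cells and 1 rose against CD45RBlow cells. The sialidase Neu3 rose by 0.97 and 0.60 (limma adjusted p = 0.000137 and 0.00693). The 2 that fell, the sialidase Neu1 and its protective protein Ctsa, had adjusted p of 0.0438 and 0.0433, and with any 1 array left out at most 1 of them was called. Between the CD25- populations Neu3 differed by 0.37 (limma adjusted p = 0.0536).

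Of all probe sets 18.9% were called for Treg against CD45RBhigh, 12.5% for Treg against CD45RBlow and 12.6% for CD45RBlow against CD45RBhigh cells. Of 15 measured genes that build galactose-ended chains, 3 rose and 2 fell in Treg against CD45RBhigh cells, 1 rose against CD45RBlow cells, and 3 were higher in CD45RBlow than in CD45RBhigh cells. Among those that rose in Treg cells, the call of B3gnt2, named after its values were seen, ended without Treg replicate 1 or 2 or CD45RBhigh replicate 2, 3 or 4 (limma adjusted p = 0.0273, up to 0.120). B4galt4, a galactosyltransferase, rose by 1.22 and 0.77 in Treg cells against the CD45RBhigh and CD45RBlow populations (limma adjusted p = 3.23e-05 and 0.00181). Its difference of 0.45 between the CD25- populations (0.0320) was not called without CD45RBlow replicate 1 or 2 or CD45RBhigh replicate 3 or 4 (limma adjusted p up to 0.0910). Gcnt1, which branches core O-glycans, rose in Treg cells by 1.35 against CD45RBhigh cells (limma adjusted p = 0.00137). Its mean of 2.78 in CD45RBhigh cells was near background, so this difference may be a lower bound. The 2 that fell were the galactosyltransferases B4galt1 and B4galt3 (limma adjusted p = 0.0228 and 0.0235), the latter named after its values were seen, and each call ended without Treg replicate 1 or 2, that of B4galt1 also without Treg replicate 4 and that of B4galt3 also without CD45RBhigh replicate 3. Of 10 measured genes for other caps on the same chains, 3, 2 and 3 were higher in Treg against CD45RBhigh cells, in Treg against CD45RBlow cells and between the CD25- populations (there in CD45RBlow cells). Fut7, which adds fucose to alpha-2,3 sialylated chains in selectin ligands, rose by 0.95 against CD45RBhigh and 0.44 against CD45RBlow cells, and by 0.51 between the CD25- populations (limma adjusted p = 2e-05, 0.00963 and 0.00206). The CD45RBlow values of Fut7 nearly coincide, from 6.425 to 6.443. Chst2, a sulfotransferase of selectin ligands, was higher by 2.26 in Treg and by 2.17 in CD45RBlow than in CD45RBhigh cells (limma adjusted p = 0.000201 and 0.000257). Ggta1, which caps galactose with galactose, rose by 1.36 in Treg against CD45RBhigh cells (limma adjusted p = 0.000164) and by 0.76 against CD45RBlow cells, where the call ended without Treg replicate 1 (adjusted p = 0.0732). Its difference of 0.60 between the CD25- populations (limma adjusted p = 0.0326) was not called without CD45RBlow replicate 1 or 2 or CD45RBhigh replicate 2, 3 or 4 (up to 0.0974).

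Of 11 measured selectins and Siglecs, lectins that bind sialylated chains, 2 rose in Treg against CD45RBhigh cells, 1 rose and 1 fell against CD45RBlow cells, and 1 was higher and 2 lower in CD45RBlow than in CD45RBhigh cells. With 1 array left out these counts fell as low as 1 higher against CD45RBhigh cells, 0 lower against CD45RBlow cells and 1 lower between the CD25- populations. In the same comparisons 18.9%, 12.5% and 12.6% of all probe sets were called, so the count against CD45RBhigh cells is near the share of all. Selp, the P-selectin gene, rose by 0.37 and 0.48 in Treg against CD45RBhigh and CD45RBlow cells (limma adjusted p = 0.0152 and 0.00490), the former call ending without Treg replicate 4 (0.0572). The calls of Cd22 in Treg cells ended without Treg replicate 1 against CD45RBhigh cells (0.0734), and without any of Treg replicates 1, 2 and 4 or CD45RBlow replicates 2 and 3 against CD45RBlow cells (up to 0.0892). Siglech, a Siglec of plasmacytoid dendritic cells, was 0.53 lower in CD45RBlow than in CD45RBhigh cells (limma adjusted p = 0.0414), and kept that call only without CD45RBhigh replicate 3 or 4 among the arrays left out in turn (up to 0.0943). Its mean was near background in each population, at 3.18 in Treg, 3.01 in CD45RBlow and 3.54 in CD45RBhigh cells. Cd22, a Siglec of B cells, was 0.59 higher in CD45RBlow than in CD45RBhigh cells on the log2 scale (limma adjusted p = 0.000150). Of 8 listed carriers of sialylated glycans 4 were measured, and of these Cd44 rose in Treg and in CD45RBlow against CD45RBhigh cells, by 1.44 and 1.5 (limma adjusted p = 0.0120 and 0.00830). The former call ended without Treg replicate 1 (adjusted p = 0.0596).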

How the data were processed

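The authors deposited 1 log2 value for each probe set and array, summarised with Robust Multichip Average (RMA), per the labels, the submitters' processing notes and the series' design text; the version is not given in the sources used here. RMA corrects background and equalises array distributions, and can understate folds of dim genes. RefSeq transcripts named 963 probe sets, and 283 stayed unnamed. limma 3.58.1 (R 4.3.3) was fitted to all 11 arrays and 1246 probe sets with a mean for each population, prior and residual degrees of freedom 2.87 and 8, two-sided, with Benjamini-Hochberg adjustment within a comparison and a threshold of 0.05. The number of arrays limits the precision. The fit was checked on simulated data with independent noise. These held no replicate sets or pairing, so the check does not cover those features of the real arrays.

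Deviations from the population means correlated at 0.31 to 0.561 in the 10 pairs of arrays that share a replicate number but not a population. Pairs with other numbers of the same set (1 and 2, or 3 and 4) gave 0.203 to 0.579. The main fit did not pair the arrays. Same-numbered pairs and fits with the replicate number as a block are given beside it. The sample titles share an ending across populations at each replicate number. No label says what that ending marks, and none states the pairing or the sets.

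Genes named were the 5 members, genes among the 3 with the smallest adjusted p of each list and comparison, the 3 most alike each member, and Il2ra, Cd44, Ccr7 and Klrd1. Listed markers of other cell types are named beside their lists, and B4galt3, B3gnt2 and St6galnac4 were named after their values were seen. The values of 1 gene that this rule names are not reported here. Members, lists and the split into replicate sets were chosen with earlier results of these data known. The alternatives tried were replicate blocks and sets, scalings, a filter on dim probe sets, another moderation, 1 probe set a gene, a fold minimum and single arrays left out.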

Additional observations from a re-analysis of the deposited data

Results flagged for a closer look

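In the CD45RBhigh population the St3gal6 value of replicate 4, 7.18, lay apart from the other 3, which lay between 7.59 and 7.63. Its gap to the nearest array was 0.912 of the group's range. This was 1 of 10 groups of 4 arrays tested, and chance gives about 1 in 20. Without that array the difference between CD45RBlow and CD45RBhigh cells was 0.52 on the log2 scale (limma adjusted p = 0.00821), and the difference between Treg and CD45RBhigh cells -2.74.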

How the results depend on the processing

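Of 555 alternative values for the 25 member results, 512 kept direction and side of the threshold, 29 lost a call, 7 gained one and 7 changed sign, and 11 results changed under no alternative. Scaling reversed no member's direction. For St3gal1, Treg against CD45RBhigh gained a call at -0.41 with the replicate block, -0.40 with the replicate set as a term and -0.37 in replicates 1 and 2, and CD45RBlow against CD45RBhigh at 0.37, 0.37 and 0.33. The block changed no other member's call. In replicates 3 and 4, with 1 Treg array assumed to vary like the rest, calls were lost for St3gal2 at 1.08, 0.83 and 0.25 in the 3 comparisons, St3gal1 at -0.88 against CD45RBlow, St3gal6 at 0.63 between the CD25- populations, and any difference in St3gal1 (0.88) and St3gal2 (1.08). Tested against a log2 fold of 0.5, calls were lost for St3gal1 (-0.85) and St3gal2 (0.68) in Treg against CD45RBlow, and for St3gal2 (0.47) and St3gal6 (0.63) between the CD25- populations, where St3gal2 (0.47) also failed with only those arrays fitted. Signs turned without a call for St3gal3 in Treg against CD45RBlow (0.02, replicates 3 and 4) and, between the CD25- populations, for St3gal3 and St3gal4 (0.08 each, replicates 1 and 2). The causes were not tested.

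Members called in the 3 comparisons were 1, 1 and 0 in replicates 3 and 4, and 1 and 0 in the latter 2 with the fold minimum. They were 1 between the CD25- populations with only those arrays. All probe sets called were 88, 49 and 63 in replicates 3 and 4 and 81, 44 and 46 with the fold minimum. In the latter 2 comparisons they were 245 and 271 with the replicate block and 238 and 247 with the replicate set, beside 156 and 157 reported.

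With 1 array left out, values ran from -0.98 to -0.72 (St3gal1), -0.30 to -0.03 (St3gal3) and 0.22 to 0.44 (St3gal4) for Treg against CD45RBlow, and from -0.35 to -0.04 (St3gal3) and 0.16 to 0.38 (St3gal4) against CD45RBhigh, where St3gal1 ran from -0.61 to -0.33. Between the CD25- populations they ran from 0.24 to 0.53 (St3gal1), 0.39 to 0.58 (St3gal2), -0.17 to 0.11 (St3gal3) and -0.12 to 0.00 (St3gal4), and 1 to 2 members were called. The largest St3gal1 difference ran from 0.72 to 0.98, and the St3gal2 difference between replicate sets from -0.03 to 0.15, negative without CD45RBlow replicate 2 (-0.01) or 3. Other probe sets of a member were not tried, since each has 1. With no detection call in the table, how far low values such as St3gal6 in Treg cells are compressed is not known.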
